A study of Homo sapiens with 18 samples.

Results

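The 9 genes described here are used by pathologists and cell biologists to read the neuroendocrine state of small cell lung cancer, and they were followed in NCI-H211, an established cell line from this cancer that expresses the tuft-cell factor POU2F3. The members were taken from a list of 9 gene symbols among 19746 entries that named a gene: the transcription factors NEUROD1 and INSM1, the vesicle proteins CHGA, CHGB and SYP, the surface proteins NCAM1 and DLL3, the neuronal tubulin TUBB3, and REST, the repressor of neuronal genes. The list rests on names and not on values measured here. All cells carried Cas9. On top of it, 3 stable lines held an empty vector, a POU2F3 cDNA that the guide cannot cut (called WT), or the same cDNA with a leucine-to-alanine change (L191A). Lentivirus for sgPOU2F3, which cuts the endogenous gene, or for the control sgRosa was added to each line in triplicate, nearly all cells were then mCherry positive, and poly(A) RNA was taken on day 5, which gave 6 groups of 3 libraries. The question for these genes was whether loss of POU2F3 turned any of them on, and whether either cDNA changed that.

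Neuroendocrine small cell lung cancer is driven by proneural transcription factors such as NEUROD1, which switch on genes for hormone granules, synaptic vesicles and neuronal adhesion. REST binds RE1 elements and keeps such genes silent in cells that are not neuronal, and INSM1 is known to oppose REST. POU2F3 marks a subtype that resembles tuft cells, the chemosensory cells of the epithelium, and that usually lacks this neuroendocrine program. The deposited values are in TPM, a level per transcript length scaled to 1000000 in every library, so read depth was unknown and no counting interval could be given.

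Because each line was made once and infected 3 times, the p-values speak of the spread between infections, not between independently made lines. The library L191A sgRosa replicate 1 and the library WT sgPOU2F3 replicate 1 stood apart. Their median level over the genes that entered the tests was 7.05 and 12.73 TPM, against 18.6 to 26.43 TPM in the other 16, and ribosomal protein genes took 37.56% and 32.44% of their TPM, against 15.57% to 26.16%. Results are therefore given over 18 libraries and again over the 16 without this pair, and the part of these measures in the results was not tested. The targeted gene, POU2F3, had 729 ± 108 TPM (SD, n = 3) under sgRosa and 281 ± 33.1 TPM (SD, n = 3) under sgPOU2F3 in empty-vector cells, and its level in the other lines includes RNA from the cDNA. All 12 tuft markers on a list were measured, and their summed level was 4024 to 4941 TPM under sgRosa and 1389 to 1660 TPM under sgPOU2F3 in empty-vector cells. Of 8 lymphoid and myeloid markers 3 passed the filter used below, their list summed to 5.14 to 20.8 TPM over all libraries, and CD3E was listed at 0 in every group.

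Promoter sequence was read for the members with an entry, and stretches are shown with motif matches near the starts of TUBB3, CHGA and REST. The matches are of letters only, and a role of any of them was not tested. RefSeq windows of 250 bases before to 50 after a start (GRCh38.p14) were matched for 5 of the 9 members, NEUROD1, REST, CHGA, TUBB3 and SYP, with 7 windows in all. TUBB3, the marker with the largest rise among the 5 with a mean of 1 TPM or more, has a pair of RefSeq starts on the plus strand of chromosome 16. The stretch before the downstream start, chr16:89923092-89923278, holds an inverted CCAAT motif, ATTGG, in capitals, and 34.619% of 34796 distinct windows hold it. The other capitals mark an AP-1 motif (TGANTCA) at the upstream TUBB3 start, chr16:89921893-89921922, and at a REST start, chr4:56908688-56908717, and a cAMP response element (CRE, TGACGTCA) at the CHGA start, chr14:92923085-92923114.
TUBB3, downstream start: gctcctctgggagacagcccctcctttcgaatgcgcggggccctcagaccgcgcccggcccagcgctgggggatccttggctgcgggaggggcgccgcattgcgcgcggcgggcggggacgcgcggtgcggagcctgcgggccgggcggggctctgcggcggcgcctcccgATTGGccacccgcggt
TUBB3, upstream start: agaccggacggTGAGTCAgccttaagcccg
REST: gccgggcgggtTGAGTCAgccccggggccc
CHGA: ggcggcaccgcTGACGTCAtttccggggtc
AP-1 was found in 7.725% and CRE in 1.842% of all windows, and both strands were searched. The octamer motif ATGCAAAT that POU2F factors read is in 1.759% of windows, the E-box CAGATG in 14.714%, and an RE1 pattern in 0.043%. None of these last 3 lies in the 7 windows of the members, which says only that the letters are not in these windows. The TEAD motif GGAATG, in 14.042% of windows, lies in a REST and a SYP window, and SYP also holds AP-1. Motifs do not overlap each other in the members' windows, and the motif set was chosen with the results known.

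The data put 4 of the 9 markers below a mean of 1 TPM over the 18 libraries, and the same 4 over the 16. They were NEUROD1 at 0.284 TPM, CHGA at 0.48 TPM, CHGB at 0.031 TPM and SYP at 0.769 TPM. The nearest member above that line was INSM1 at 4.357 TPM. The others were DLL3 at 13.938 TPM, REST at 16.62 TPM, TUBB3 at 25.659 TPM and NCAM1 at 88.002 TPM. CHGA, CHGB and NEUROD1 were thus near the floor of the table outside L191A cells under sgPOU2F3, while NCAM1, DLL3, INSM1 and TUBB3 RNA were present in all 18 libraries. The filter, a mean of 1 TPM or more, left 13067 genes for testing, and 5 of the 9 members passed it. The test was limma on log2(TPM + 1) with all 18 libraries in the fit, 12 contrasts, and Benjamini-Hochberg adjustment over all genes tested at an adjusted p of 0.05.

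**Figure D1:**
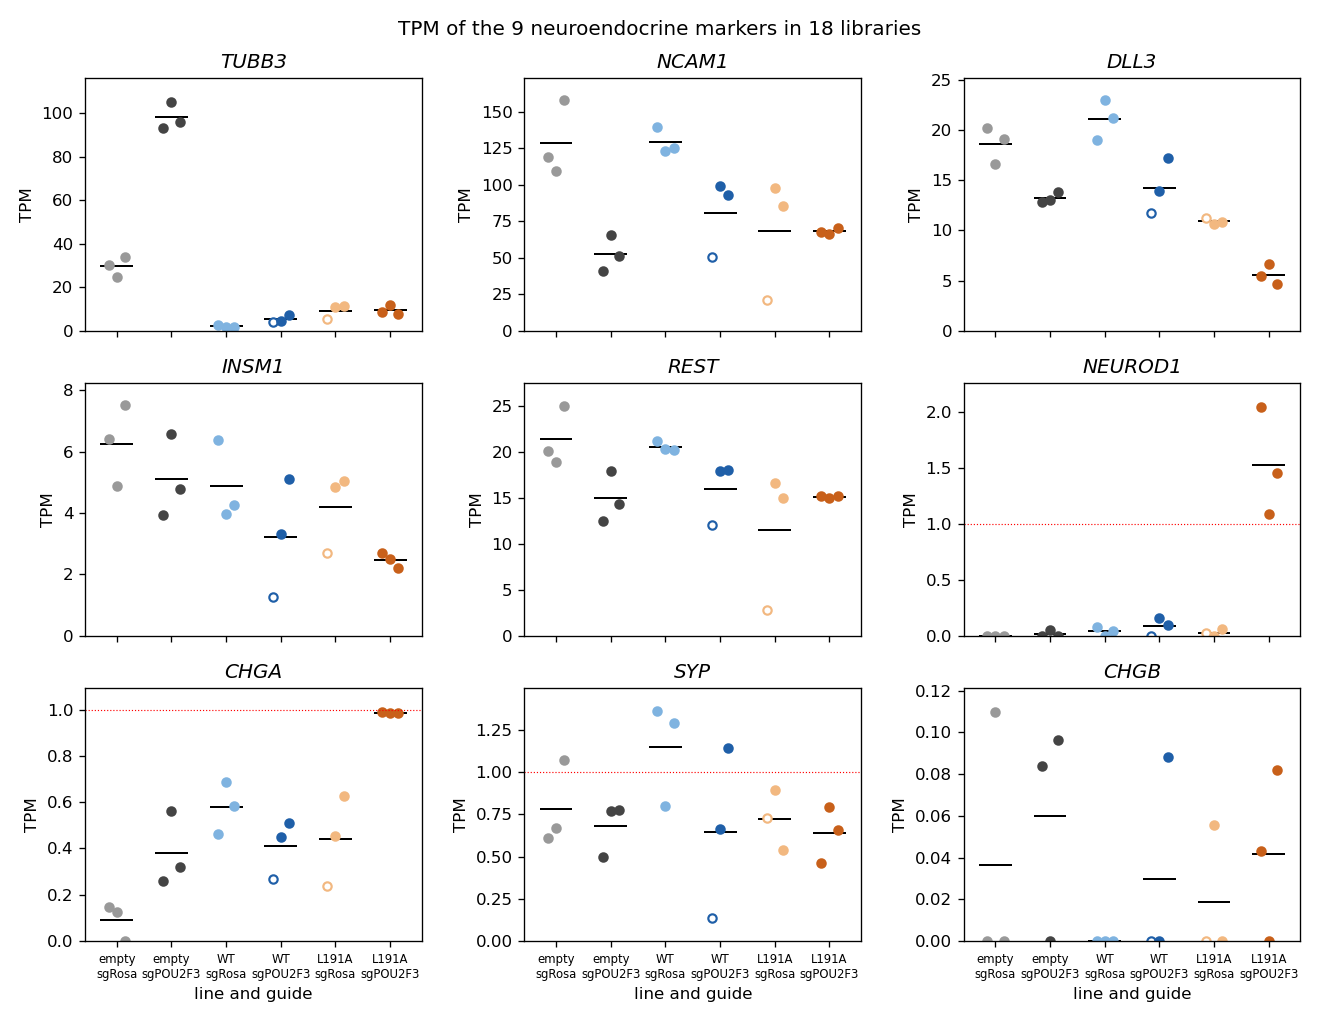
TPM of each marker (vertical axes, linear from 0) in the 3 libraries of each line and guide (horizontal axes). Bars are group means, open points are the pair of libraries that stood apart, and the red dotted line is 1 TPM: TUBB3 is highest in empty-vector cells under sgPOU2F3, and NEUROD1 passes 1 TPM only in L191A cells under sgPOU2F3.

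With sgPOU2F3 in empty-vector cells, TUBB3 was higher and NCAM1 lower than with sgRosa. These were the 2 of 5 tested members that passed the test there, against 17.4% of all genes tested. Whether effects of the guide other than loss of POU2F3 had a part was not tested. By direction, 7.94% of all genes were called higher and 9.5% lower. Over 16 libraries 4 of the 5 passed, TUBB3 higher and NCAM1, DLL3 and REST lower, where 51.7% of all genes did. The median change of the 5 members was -0.46 on the log2(TPM + 1) scale, and that of all genes tested was -0.13. In WT cells 1 of the 5 passed, TUBB3 higher, against 6.71% of all genes tested, and in L191A cells 1 of the 5 passed, DLL3 lower, against 5.99%. The medians of all genes were -0.42 and 0.33 in those lines, and over 16 libraries they were -0.26 and 0.01. The members' own medians were -0.55 and 0.07 over 18 libraries and -0.18 and -0.42 over 16.

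**Figure D2:**
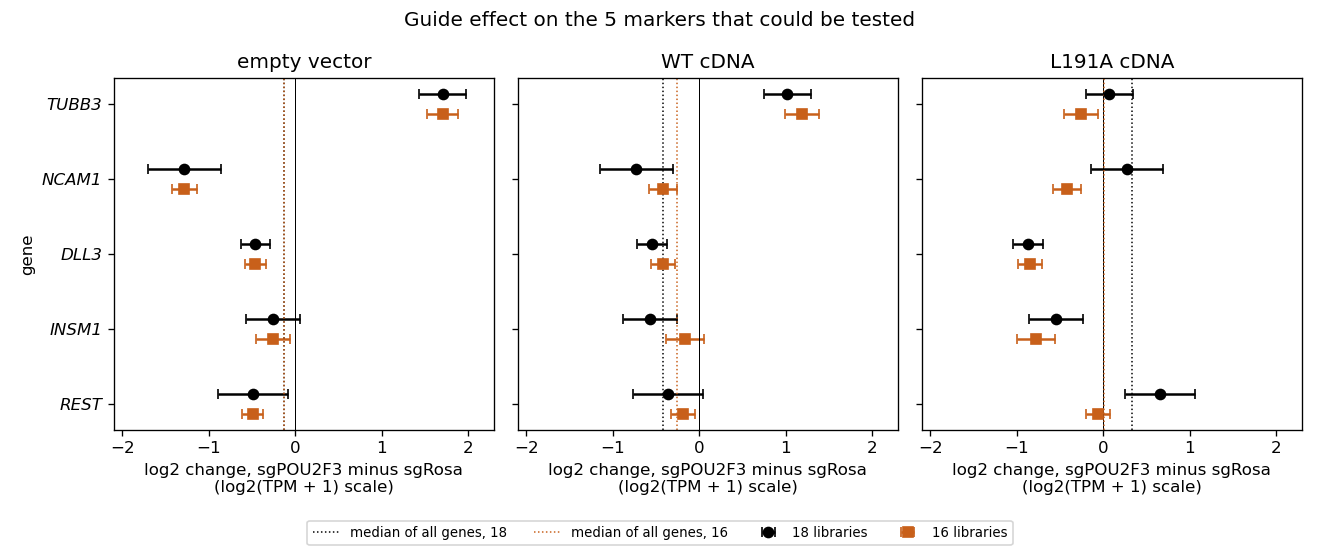
Change of the 5 tested markers with sgPOU2F3 in each line (horizontal axes, difference of log2(TPM + 1), points with bars of 1 standard error) over 18 and over 16 libraries, with dotted lines at the median of all genes. TUBB3 lies at 1.71 in empty-vector cells and at 1.02 in WT cells over 18 libraries, and DLL3 lies below 0 in all lines.

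NEUROD1 (chr2:181673088-181680876, minus strand) encodes a proneural basic helix-loop-helix factor that defines a subtype of small cell lung cancer. In empty-vector cells it was listed at 0 in all libraries under sgRosa, and it had 0, 0.0518 and 0 TPM under sgPOU2F3. In WT cells it had 0.077, 0 and 0.0417 TPM under sgRosa and 0, 0.158 and 0.101 TPM under sgPOU2F3. In L191A cells it had 0.0285, 0 and 0.0584 TPM under sgRosa but 2.05, 1.09 and 1.46 TPM under sgPOU2F3. The 3 libraries of that last group were the only ones above 1 TPM, and the other 15 reached at most 0.158 TPM, with 8 of them listed at 0.

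Since NEUROD1 is under the filter, it was fitted in a second model with no filter on low values, in which 18472 genes entered. There the sgPOU2F3 effect in L191A cells was 1.28 ± 0.10 (SE) on the log2(TPM + 1) scale, with an adjusted p of 6.861e-07 by limma, where 4.77% of all genes were called higher. NEUROD1 passed in every other setting tried with no filter, at 0.37 to 3.64 on the log2 scale. The extremes were those with a pseudocount of 5 and of 0.1. The fit of only the groups compared was not among these settings. NEUROD1 changed by 0.02 in empty-vector cells (adjusted p = 0.931) and by 0.06 in WT cells (adjusted p = 0.667) in the limma fit with no filter. The effect in L191A cells was larger than in empty-vector cells by 1.26 (adjusted p = 9.913e-05 by limma) and than in WT cells by 1.22 (adjusted p = 0.0001058), where 5.43% and 9.97% of all genes were called. CERKL, which lies over NEUROD1 on the same strand, had 0.355 ± 0.197 TPM (SD, n = 3) in L191A cells under sgPOU2F3 and group means of 0 to 0.11 TPM elsewhere, and reads of the overlapping genes may have been shared between them.

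INSM1 (chr20:20368121-20370949, plus strand) encodes a zinc-finger factor of neuroendocrine cells and was the best-expressed neuroendocrine transcription factor among the members. It had 6.40, 4.87 and 7.52 TPM in empty-vector cells under sgRosa and 3.94, 6.59 and 4.79 TPM under sgPOU2F3, and these groups overlapped. In WT cells it had 6.37, 3.97 and 4.27 TPM under sgRosa and 1.25, 3.32 and 5.12 TPM under sgPOU2F3, again with overlap. L191A cells had 2.71, 4.85 and 5.04 TPM under sgRosa and 2.70, 2.49 and 2.22 TPM under sgPOU2F3. Every library under sgPOU2F3 was thus below every library under sgRosa, the nearest by very little. Of all genes tested, 4.12% were lower without overlap there. INSM1 passed limma's test in none of the 12 contrasts over 18 libraries, and it was lower in 1 of them at an unadjusted p of 0.05. Without the pair of libraries that stood apart, the change with sgPOU2F3 in L191A cells was -0.78 ± 0.22 (SE), with an adjusted p of 0.0306 by limma. Over 16 libraries 3.33% of all genes were called lower there, and 10.7% passed in either direction. L191A cells under sgPOU2F3 then had less INSM1 than empty-vector cells under that guide as well, by -0.79 (adjusted p = 0.00845 by limma). In that comparison 14.6% of all genes were called lower, and 22.9% passed in either direction.

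The vesicle markers were low throughout. CHGA (chr14:92923080-92935293, plus strand) and CHGB (chr20:5911430-5925361, plus strand) encode the granins that pack hormone granules, and SYP (chrX:49187804-49200259, minus strand) encodes synaptophysin of synaptic vesicles. CHGA had 0.146, 0.124 and 0 TPM in empty-vector cells under sgRosa and 0.261, 0.56 and 0.318 TPM under sgPOU2F3. WT cells had 0.464 to 0.687 TPM under sgRosa and 0.268 to 0.511 TPM under sgPOU2F3. L191A cells had 0.238, 0.453 and 0.628 TPM under sgRosa and 0.989, 0.987 and 0.983 TPM under sgPOU2F3. CHGA was thus lowest in empty-vector cells under sgRosa and highest in L191A cells under sgPOU2F3, and no library reached 1 TPM.

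In the limma fit with no filter, CHGA was higher with sgPOU2F3 in empty-vector cells by 0.34 (adjusted p = 0.0432) and in L191A cells by 0.47 (adjusted p = 0.013). There 6.85% and 4.77% of all genes were called higher, and 14.6% and 5.21% in either direction. The first call ended without any one of 5 of the 6 libraries compared (all but sgPOU2F3 replicate 1, adjusted p up to 0.189) and with a pseudocount of 5 (adjusted p = 0.0558 by limma). The second ended without L191A sgRosa replicate 1 (adjusted p = 0.0522) and with a pseudocount of 0.1 (adjusted p = 0.132 by limma). Under sgRosa, CHGA was higher in WT than in empty-vector cells by 0.53 (adjusted p = 0.00534 by limma with no filter), where 7.22% of all genes were called. CHGB was listed at 0 in 11 of the 18 libraries and reached at most 0.11 TPM. SYP had 0.133 to 1.36 TPM over all libraries, with group means between 0.637 TPM in L191A cells under sgPOU2F3 and 1.15 TPM in WT cells under sgRosa. Neither CHGB nor SYP passed in any contrast of the limma fit with no filter; at an unadjusted p of 0.05, CHGB passed in 0 and SYP in 1 of 12. Every pair of neighbouring SYP groups in the order of means overlapped.

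NCAM1 (chr11:112961247-113278436, plus strand), the gene of the adhesion molecule CD56, was the most abundant member. It had 119, 110 and 158 TPM in empty-vector cells under sgRosa and 41.0, 65.8 and 51.4 TPM under sgPOU2F3, and the groups did not overlap. Of all genes tested, 31.8% were lower without overlap there. The ratio of the means was 0.409, the log2 change was -1.28 ± 0.42 (SE), and the adjusted p was 0.0463 by limma. Over 16 libraries the same change had an SE of 0.15 and an adjusted p of 3.548e-06 by limma, where 32.7% of all genes were called lower. Leaving out any one of the 6 libraries compared ended the call (adjusted p 0.0562 to 0.175 by limma), as did 4 of the other settings, a pseudocount of 0.1, no filter, a filter of 5 TPM and no variance trend (adjusted p 0.0507 to 0.0587).

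With the WT cDNA, NCAM1 had 139, 123 and 125 TPM under sgRosa and 50.4, 99.0 and 93.1 TPM under sgPOU2F3, the lowest being the library that stood apart. That change was -0.73 ± 0.42 (SE) with an adjusted p of 0.196 by limma, and -0.42 (adjusted p = 0.0531) over 16 libraries. In L191A cells NCAM1 had 20.8, 98.2 and 85.4 TPM under sgRosa and 67.9, 66.4 and 70.4 TPM under sgPOU2F3. There, too, the outlying value of 20.8 TPM belonged to the library that stood apart, and the change was 0.28 (adjusted p = 0.646) over 18 and -0.42 (adjusted p = 0.132 by limma) over 16 libraries. The sgPOU2F3 effect was less negative in WT than in empty-vector cells by 0.86 (adjusted p = 0.009 by limma) and in L191A than in empty-vector cells by 0.86 (adjusted p = 0.0111) over 16 libraries, where 26.7% and 23.3% of all genes passed. Over 18 libraries those differences were 0.55 (adjusted p = 0.627) and 1.56 (adjusted p = 0.118 by limma).

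DLL3 (chr19:39498895-39508481, plus strand) encodes an inhibitory Notch ligand that reaches the surface of neuroendocrine tumour cells and is a drug target there. It had 20.2, 16.6 and 19.1 TPM in empty-vector cells under sgRosa and 12.8, 12.99 and 13.9 TPM under sgPOU2F3, with no overlap. WT cells had 19.0, 23.0 and 21.2 TPM under sgRosa and 11.7, 13.9 and 17.2 TPM under sgPOU2F3, also with no overlap. L191A cells had the lowest levels, 11.3, 10.6 and 10.8 TPM under sgRosa and 5.45, 6.61 and 4.63 TPM under sgPOU2F3. Every library under sgPOU2F3 was below every sgRosa library of its line, an order that 31.8%, 56.3% and 4.12% of all genes tested showed in empty-vector, WT and L191A cells.

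DLL3 fell with sgPOU2F3 in L191A cells by 0.87 ± 0.17 (SE) on the log2 scale (adjusted p = 0.00467 by limma), where 0.566% of all genes were called lower, and by 0.85 (adjusted p = 0.000564 by limma) over 16 libraries, where 3.33% were. Only the fit of these groups alone ended that call (adjusted p = 0.346). In empty-vector cells the change was -0.46 ± 0.17 (SE), with an adjusted p of 0.0788, and in WT cells it was -0.55 ± 0.17 (SE), with an adjusted p of 0.0594 by limma. Over 16 libraries both passed, at -0.46 (adjusted p = 0.00645) and -0.42 (adjusted p = 0.0331 by limma). There 32.7% and 30.4% of all genes were called lower, and 51.7% and 36.1% passed in either direction. With median-ratio scaling the DLL3 changes were -0.33 (adjusted p = 0.378) and -0.12 (adjusted p = 0.744 by limma). The differences of the effect between lines did not pass, at -0.08 to -0.41 with adjusted p of 0.257 to 0.872 by limma over 18 libraries, although L191A against WT passed with median-ratio scaling, at -1.18 (adjusted p = 0.0463). Of the summed TPM of the Notch ligands, DLL3 made up 10.3% ± 1.23 (SD, n = 3) under sgRosa and 8.10% ± 2.10 under sgPOU2F3 in empty-vector cells. JAG1, an activating Notch ligand, rose there from 6.25 ± 1.08 to 25.1 ± 5.29 TPM (SD, n = 3), by 1.84 on the log2 scale (adjusted p = 0.00307 by limma).

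TUBB3 (chr16:89921392-89938761, plus strand) encodes class III beta-tubulin, the neuronal form, and had the largest change with sgPOU2F3 on the log2(TPM + 1) scale. By ratio of means, NEUROD1 in L191A cells (52.9) and CHGA in empty-vector cells (4.21) rose more, from levels near the floor of the table. It had 30.1, 24.9 and 33.8 TPM in empty-vector cells under sgRosa and 93.4, 105 and 95.8 TPM under sgPOU2F3. All libraries with the guide were far above all without it, and the ratio of the means was 3.32. Of all genes tested, 20.1% were higher without overlap in these cells. TUBB3 rose by 1.71 ± 0.27 (SE) on the log2(TPM + 1) scale (adjusted p = 0.000419 by limma), and by size of change it ranked 220 from the top of 13067 genes. TUBB3 passed here in every other setting tried, at 1.58 to 1.84.

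In WT cells the level of TUBB3 was far lower, 2.67, 1.91 and 1.66 TPM under sgRosa and 3.88, 4.73 and 7.47 TPM under sgPOU2F3, again without overlap. Of all genes tested, 10.6% were higher without overlap there. The ratio of the means was 2.58, and the change was 1.02 ± 0.27 (SE), with an adjusted p of 0.0428 over 18 and 0.00123 over 16 libraries by limma. Of all genes, 1.54% were called higher over 18 libraries and 5.69% over 16, where 36.1% passed in either direction. Leaving out any one of the 6 libraries compared ended the call over 18 libraries (adjusted p 0.0583 to 0.112 by limma), as did a pseudocount of 5, a filter of 5 TPM and only the groups compared (adjusted p 0.0561 to 0.0714). L191A cells had 5.29, 11.2 and 11.4 TPM under sgRosa and 8.80, 11.97 and 7.65 TPM under sgPOU2F3, and the groups overlapped. The change there was 0.07 ± 0.27 (SE), with an adjusted p of 0.866, and it was -0.25 (adjusted p = 0.549 by limma) over 16 libraries. The TUBB3 response was smaller in L191A than in empty-vector cells by 1.64 (adjusted p = 0.0231) over 18 and by 1.96 (adjusted p = 0.000132 by limma) over 16 libraries, and it was the only one of 15 member and contrast pairs to pass in the 3 differences between lines, where 6.99% (WT against empty vector), 6.08% (L191A against empty vector) and 11.7% (L191A against WT) of all genes passed. Over 18 libraries this call ended without any one of 6 libraries, empty-vector sgRosa replicate 2, empty-vector sgPOU2F3 replicates 1, 2 and 3, and L191A sgPOU2F3 replicates 1 and 3 (adjusted p 0.0502 to 0.0681 by limma), and with only the groups compared (adjusted p = 0.0508). Against WT the L191A response was smaller by 0.95 (adjusted p = 0.0711), and by 1.45 (adjusted p = 0.00308 by limma) over 16 libraries, where 13.2% of all genes passed. The WT and empty-vector responses differed by -0.69 (adjusted p = 0.321 by limma).

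**Figure D3:**
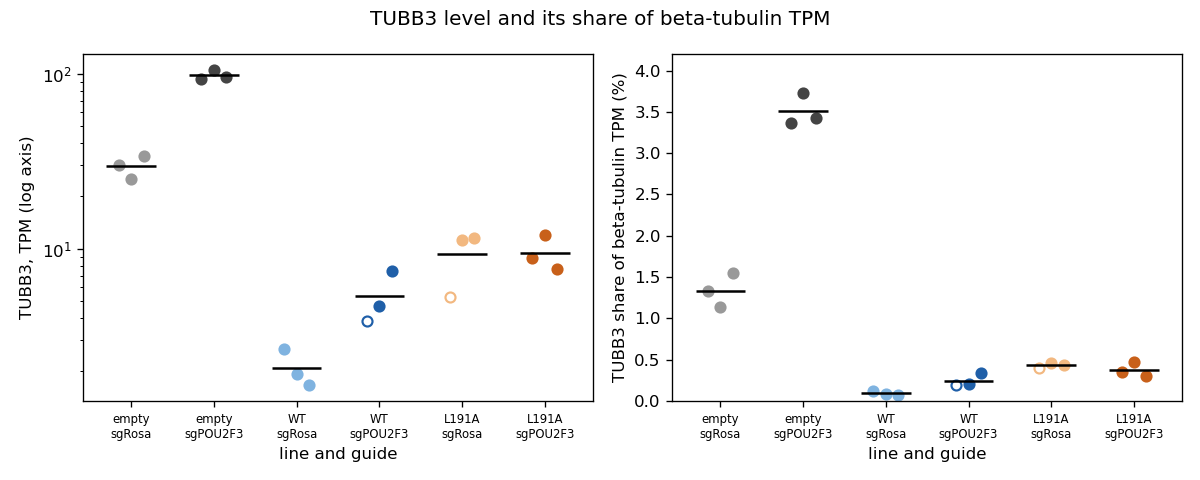
Left, TUBB3 in TPM on a log axis; right, its share of the summed TPM of the beta-tubulin genes in percent; points are libraries, bars are means, and open points are the pair that stood apart. The share is 1.34% under sgRosa and 3.51% under sgPOU2F3 in empty-vector cells and between 0.075% and 0.467% in every library of both cDNA lines.

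Beta-tubulin genes are close copies of each other, so TUBB3 was also read against its family. Its share of their summed TPM was 1.34% ± 0.21 (SD, n = 3) under sgRosa and 3.51% ± 0.20 under sgPOU2F3 in empty-vector cells, 0.092% ± 0.022 and 0.245% ± 0.078 in WT cells, and 0.432% ± 0.030 and 0.373% ± 0.086 in L191A cells. Within the L191A sgRosa group this share was 0.403%, 0.463% and 0.431%, so the library that stood apart lay close to the others once TUBB3 was set against its own family. Of 7 other beta-tubulins tested, 2 rose with sgPOU2F3 in empty-vector cells, where 7.94% of all genes were called higher, TUBB6 by 1.35 (adjusted p = 1.296e-06) and TUBB2A by 0.80 (adjusted p = 0.00247 by limma). TUBB6 rose in L191A cells too, by 0.57 (adjusted p = 0.0104 by limma), and changed by 0.12 (adjusted p = 0.453) in WT cells. MC1R, whose transcripts can read through into TUBB3, had 3.04 ± 0.41 TPM under sgRosa and 3.28 ± 1.08 TPM under sgPOU2F3 (SD, n = 3) in empty-vector cells.

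REST (chr4:56907876-56966678, plus strand), the repressor in this set, was present in every library. It had 20.1, 19.0 and 25.1 TPM in empty-vector cells under sgRosa and 12.6, 18.01 and 14.4 TPM under sgPOU2F3, with no overlap. Of all genes tested, 31.8% were lower without overlap there. WT cells had 20.3 to 21.3 TPM under sgRosa and 12.1, 17.97 and 18.1 TPM under sgPOU2F3, and L191A cells had 2.83, 16.6 and 14.99 TPM under sgRosa and 15.02 to 15.24 TPM under sgPOU2F3. Both outlying values, 12.1 and 2.83 TPM, belonged to the libraries that stood apart. The change in empty-vector cells was -0.49 ± 0.41 (SE), with an adjusted p of 0.469 by limma. Over 16 libraries it passed, with an SE of 0.12 and an adjusted p of 0.0037 by limma, where 32.7% of all genes were called lower. Over all 18 libraries, with each library's trend against transcript length removed, the change was -0.25 (adjusted p = 0.114 by limma). The longest REST transcript has 7300 bases and that of NCAM1 6045, against 2829 for INSM1, 2332 for DLL3 and 1978 for TUBB3. In L191A sgRosa replicate 1, where NCAM1 and REST were far below their group, DLL3 had 11.3 TPM, beside 10.6 and 10.8 TPM in replicates 2 and 3. TUBB3 had 5.29 TPM in that library, beside 11.2 and 11.4 TPM. INSM1 had 2.71 TPM in it, beside 4.85 and 5.04 TPM. The part of transcript length in these levels was not tested.

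Between lines, the largest differences among the 5 tested members on the log2(TPM + 1) scale were those of TUBB3, except between L191A and WT cells under sgPOU2F3, where DLL3 differed more. Under sgRosa the WT line had 14.2-fold less TUBB3 than the empty-vector line (log2 difference -3.31 ± 0.27 SE, adjusted p = 1.069e-06 by limma) and the L191A line had 3.18-fold less (-1.63, adjusted p = 0.000876), a call that ended with only the groups compared (adjusted p = 0.0861 by limma). Under sgPOU2F3 these were 18.3-fold (-4.00, adjusted p = 6.451e-08 by limma) and 10.4-fold (-3.26, adjusted p = 1.414e-06). TUBB3 was higher in L191A than in WT cells under sgRosa, by 1.69 (adjusted p = 0.000305 by limma), and by 0.74 under sgPOU2F3 (adjusted p = 0.0927). In the comparison of WT with empty-vector cells under sgPOU2F3, TUBB3 ranked 7 from the lowest of 13067 genes.

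DLL3 was lower in L191A than in empty-vector cells under sgPOU2F3 by -1.13 (adjusted p = 0.000602) and than in WT cells by -1.21 (adjusted p = 0.000149 by limma), and both calls held in every other setting tried. The same differences under sgRosa, -0.72 (adjusted p = 0.00801) and -0.89 (adjusted p = 0.00105 by limma), did not pass with median-ratio scaling, at -0.11 (adjusted p = 0.76) and -0.18 (adjusted p = 0.574), or with quantile normalization, at -0.05 (adjusted p = 0.888) and -0.11 (adjusted p = 0.742 by limma). Neither passed with only the groups compared (adjusted p = 0.183 and 0.0582 by limma), and the first did not with the length trend removed (adjusted p = 0.0997). NCAM1 and REST were each lower in L191A cells than in both other lines under sgRosa over 18 libraries, by -1.07 to -1.18 (adjusted p 0.028 to 0.0444 by limma), and by -0.36 to -0.49 (adjusted p 0.0179 to 0.0333) over 16, where 39.2% (against empty vector) and 58.2% (against WT) of all genes passed. With median-ratio scaling none of these 4 differences passed (adjusted p 0.0511 to 0.103 by limma), nor with only the groups compared (adjusted p 0.159 to 0.267), nor without L191A sgRosa replicate 1 alone (adjusted p 0.103 to 0.171 by limma). Each also ended without any one of the 3 sgRosa libraries of the other line (adjusted p 0.0541 to 0.153 by limma). In all, 4 of 15 member and contrast pairs passed under sgPOU2F3, where 20.6% (WT against empty vector), 3.79% (L191A against empty vector) and 13.5% (L191A against WT) of all genes did, and 9 of 15 passed under sgRosa, where 7.2%, 36% and 55.8% did.

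By order of group means, TUBB3 ran from empty-vector cells under sgPOU2F3 (98.2 TPM) and sgRosa (29.6 TPM) to L191A cells (9.47 and 9.30 TPM) and WT cells under sgPOU2F3 (5.36 TPM) and sgRosa (2.08 TPM). Of the neighbours in that order, the L191A groups overlapped each other and L191A under sgRosa overlapped WT under sgPOU2F3. DLL3 ran from WT under sgRosa (21.1 TPM) down to L191A under sgPOU2F3 (5.56 TPM), and over 18 libraries only its lowest 3 groups were separated from one another without overlap, and over 16 libraries its lowest 4 groups were. NCAM1 had a separated top pair, WT and empty-vector cells under sgRosa at 129 TPM each, whose libraries overlapped. All neighbouring INSM1 groups overlapped over 18 libraries. For REST, the pair of WT and empty-vector cells under sgRosa (20.6 and 21.4 TPM) lay above the rest. Such separation by guide was common. Of all genes tested, 31.8%, 56.3% and 4.12% were lower without overlap under sgPOU2F3 in empty-vector, WT and L191A cells. In the same lines 20.1%, 10.6% and 24.1% were higher without overlap. The share of all genes with these orders of groups was not counted.

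Genes whose pattern over the 16 libraries was most like that of a member were sought among 10069 genes whose mean was 5 TPM or more, as a description. For NCAM1 they included RELN (Pearson r = 0.985) and PLCB1 (0.983). RELN, an extracellular matrix protein, had 108 TPM in empty-vector cells under sgRosa and 32.8 TPM under sgPOU2F3. For TUBB3 they were ING2 (0.957), LGALS3BP (0.947) and TEAD2 (0.936), for DLL3 TNFRSF25 (0.968), IGSF21 (0.965) and OSR2 (0.96), for INSM1 HSD11B2 (0.94), FSCN1 (0.931) and CRISPLD2 (0.926), and for REST ATG14 (0.976), PER3 (0.973) and PUM2 (0.971). These r values were taken over libraries of the same 6 groups, so they share the differences between groups.

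The rest of the neuroendocrine and neuronal repertoire was read from 3 lists with 99 genes (transcription factors, granule and synaptic vesicle genes, and neuronal cytoskeleton, surface and RNA-binding genes), of which 39 passed the filter. With sgPOU2F3 in empty-vector cells 1 rose and 9 fell, against 7.94% and 9.5% of all genes tested, and over 16 libraries 6 rose and 19 fell, against 19% and 32.7%. The median change was -0.35, against -0.13 over all genes. Among those that fell were the zinc-finger factor ST18 by 1.55 (adjusted p = 0.0115 by limma), the pioneer factor FOXA1 by 1.15 (adjusted p = 0.039), the vesicle fusion proteins VAMP2 by 0.98 (adjusted p = 0.0161) and SNAP25 by 0.63 (adjusted p = 0.0418), and the alpha-tubulin TUBA1A by 0.87 (adjusted p = 7.987e-05). RTN1 fell by 0.87 (adjusted p = 0.00446), the RNA-binding protein NOVA1 by 0.79 (adjusted p = 0.0233) and BEX2 by 0.62 (adjusted p = 0.0233 by limma). The single riser, named after its values were seen, was the ubiquitin hydrolase UCHL1, by 0.36 (adjusted p = 0.0411 by limma), from 686 to 877 TPM. TUBA1A and TUBB3, whose proteins pair in microtubules, thus moved in opposite directions in empty-vector cells.

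**Figure D4:**
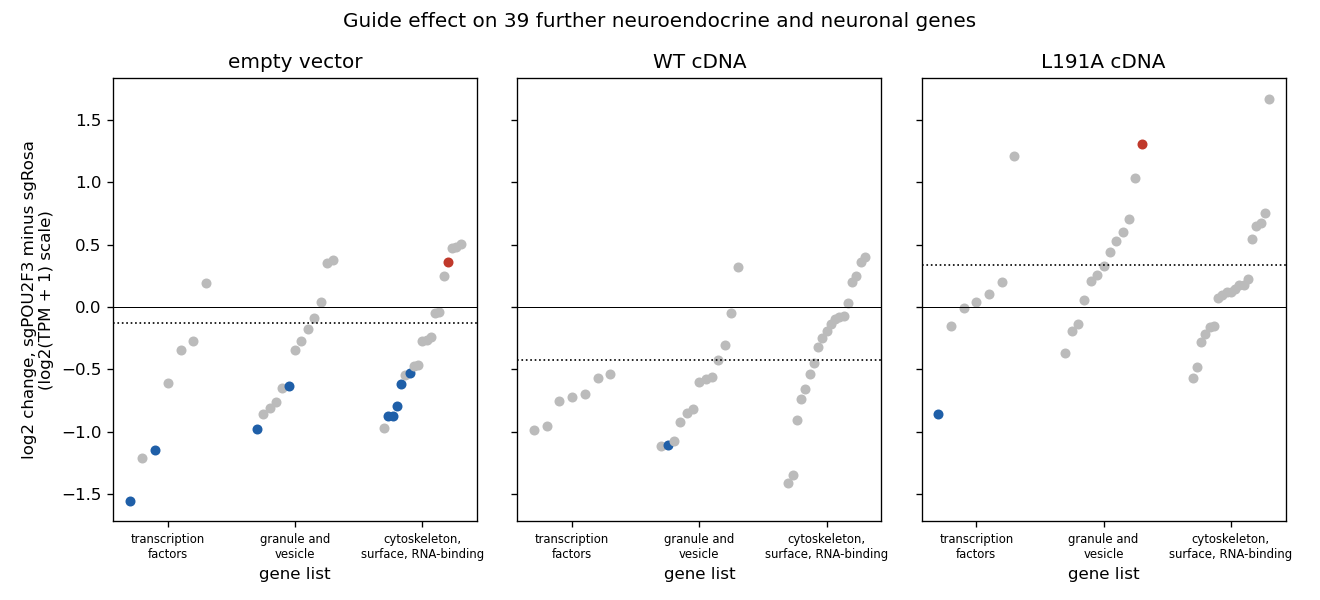
Change with sgPOU2F3 (vertical axis, difference of log2(TPM + 1)) of the 39 tested genes of the 3 neuroendocrine and neuronal lists in each line; red genes were called higher, blue lower and grey neither, and the dotted line is the median of all genes. In empty-vector cells 9 genes are blue and 1 is red.

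In WT cells 1 of the 39 genes passed, VAMP2, which fell by 1.11 (adjusted p = 0.0291 by limma), where 1.54% of all genes were called higher and 5.17% lower. In L191A cells HES6 fell by 0.86 (adjusted p = 0.0374) and PAM, an enzyme of peptide hormone maturation, rose by 1.304 (adjusted p = 0.0115 by limma), both named after their values were seen, where 5.43% of all genes were called higher and 0.566% lower. Over 16 libraries 2 rose and 14 fell in WT cells, against 5.69% and 30.4% of all genes, and 3 rose and 5 fell in L191A cells, against 7.35% and 3.33%. The groups of 5 or fewer, named after their values were seen, were UCHL1 and TUBA1A higher in WT cells, and PAM, FOXA1 and MAP2 higher and HES6, ST18, PROX1, RAB3A and STMN3 lower in L191A cells. The medians were -0.56 and 0.15, against -0.42 and 0.33 over all genes. Of the 60 list genes under the filter, 53 could be fitted with no filter. In empty-vector cells 6 were called higher and 1 lower there, against 6.85% and 7.73% of all genes. The genes called, chosen after their values were seen, stayed low: RIMS2 went from 0.721 to 2.46 TPM (adjusted p = 0.000379), L1CAM from 0.306 to 1.72 TPM (adjusted p = 0.00092), NEFH from 0.537 to 1.58 TPM (adjusted p = 0.00993 by limma), SCG2 from 0.196 to 0.684 TPM, VGF was listed at 0 without the guide and had 0.654 TPM with it, SYN1 was listed at 0 and had 0.184 TPM, and PTPRN2 went from 1.09 down to 0.377 TPM. In WT cells 0 were called higher and 7 lower, against 1.45% and 6.63% of all genes, and in L191A cells limma called 0 of the 53 in either direction, also over 16 libraries, against 4.77% and 0.444% over 18, and 2 were higher and 0 lower at an unadjusted p of 0.05.

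REST's partners and targets were read from lists as well. All 21 REST cofactors passed the filter, and limma called 0 of them in the sgPOU2F3 effects of the 3 lines over 18 libraries. At an unadjusted p of 0.05, 2 and 12 were lower in empty-vector and WT cells and 1 was higher in L191A cells. Over 16 libraries limma called 0 higher, and 8, 13 and 1 lower in empty-vector, WT and L191A cells, where 32.7%, 30.4% and 3.33% of all genes were called lower. The 8 and the 1 are near those shares of 21 genes. Their medians over 18 libraries were -0.20, -0.82 and 0.42, against -0.13, -0.42 and 0.33 over all genes. Of 28 genes with known RE1 elements only 6 passed the filter. With sgPOU2F3, 1 of the 6 was called higher and 1 lower in empty-vector cells, against 7.94% and 9.5% of all genes. In WT cells 0 were called higher and 1 lower, against 1.54% and 5.17%. In L191A cells 1 was called higher and 0 lower, against 5.43% and 0.566%. The gene called lower in empty-vector cells was SNAP25, by 0.63. BDNF, a neurotrophin gene, rose with sgPOU2F3 in empty-vector cells by 1.01 (adjusted p = 0.00585) and in L191A cells by 1.17 (adjusted p = 0.00402), and it fell in WT cells by 1.36 (adjusted p = 0.00433 by limma). Its level was 1.72 ± 0.048, 1.28 ± 0.55 and 21.3 ± 1.42 TPM (SD, n = 3) under sgRosa in empty-vector, L191A and WT cells, and 4.53 ± 0.888, 4.03 ± 0.0864 and 8.001 ± 2.72 TPM under sgPOU2F3. Among the 22 RE1 genes under the filter, 5 were called higher in empty-vector cells in the fit with no filter, SYN1, VGF, L1CAM, HCN4 and MAPK8IP1, with group means of 0.102 to 1.72 TPM under sgPOU2F3, and 0 lower, against 6.85% and 7.73% of all genes. In WT cells 0 were called higher and 3 lower, GRIN1, CELSR3 and MAPK8IP1, against 1.45% and 6.63%, and in L191A cells 1 was called higher, MAPK8IP1, and 0 lower, against 4.77% and 0.444%. MAPK8IP1 thus rose in empty-vector and L191A cells and fell in WT cells, and all these genes were named after their values were seen. SYN1, VGF and L1CAM are also on the neuroendocrine and neuronal lists, so their calls are the same ones given above for those lists.

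Non-neuroendocrine and mesenchymal markers were read beside them. Of 9 tested, 7 rose and 1 fell with sgPOU2F3 in empty-vector cells, against 7.94% and 9.5% of all genes, and the median change was 2.02, against -0.13 over all genes. The largest rises were those of SNAI2 by 3.70 (adjusted p = 1.264e-07), VIM by 3.61 (adjusted p = 2.923e-08) and YAP1 by 3.37 (adjusted p = 9.429e-05 by limma), the smallest called was LGALS3 by 0.81 (adjusted p = 0.0061), and ANXA1 fell by 1.10 (adjusted p = 3.239e-05 by limma). In L191A cells 7 rose and 0 fell, against 5.43% and 0.566% of all genes, and in WT cells 2 rose, VIM and LGALS3, and 0 fell, against 1.54% and 5.17%. Over 16 libraries 8, 5 and 7 rose in empty-vector, WT and L191A cells, against 19%, 5.69% and 7.35%. Of the 9 neuroendocrine markers, TUBB3 was the only one above 1 TPM called higher with sgPOU2F3, in empty-vector and WT cells over 18 libraries. The WT call held in 9 of 18 other settings. NEUROD1 passed 1 TPM only in L191A cells under sgPOU2F3, at 1.53 ± 0.483 TPM (SD, n = 3). CERKL, which overlaps NEUROD1, was also highest in that group. In the fit with no filter CHGA was called higher in empty-vector and L191A cells, below 1 TPM in every library.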

How the data were processed

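RNA-seq libraries were made from total RNA with a TruSeq kit and poly(A) selection, per the labels' protocols. The authors deposited one table of TPM values per gene, made with kallisto on hg38 per the submitters' processing notes. Its version, its transcript set and whether strand was used: not given in the sources used here. Each library sums to 1000000 TPM, so depth is unknown. Of 19875 entries, 129 that name no gene (27 turned into dates, 102 text fragments, 1.64% to 2.43% of TPM) were left out, and 97.8% of the others were found in the gene name table.

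Libraries were grouped by their titles, and no pair of libraries held identical values. limma 3.58.1 (R 4.3.3) was fitted to log2(TPM + 1) with 1 coefficient per group over 18 libraries and a variance trend, two-sided, for genes with a mean of 1 TPM or more, with Benjamini-Hochberg adjustment per contrast at 0.05. The script was tested on simulated data. Members under that filter were fitted with no filter (genes above 0 in at least 1 library); limma offsets variances of 0 there. Alternatives were pseudocounts of 0.1 and 5, filters of none and 5 TPM, median-ratio scaling, quantile normalization, removal of each library's trend against transcript length (97.7% of tested genes had one), no variance trend, a replicate block, only the groups compared, and left-out libraries. For members below 1 TPM, pseudocounts of 0.1 and 5, median-ratio scaling, the 16 libraries and left-out single libraries were combined with no filter. These fits were added after seeing the data. Quantile normalization, removal of the length trend, no variance trend, the replicate block and only the groups compared were not run for them.

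Members, lists and promoter motifs were chosen with earlier results of these data known. Outside the 9 members, up to 4 genes per list with the smallest p in empty-vector cells were to be named, with any list gene higher there by 2-fold or more and at 1 TPM or more, and the 3 genes of highest correlation per member. Some genes that this rule or the lists cover are not reported here. CD44 was not matched in the table. Gene positions are GENCODE v29 on hg38, and promoters are RefSeq's on GRCh38.p14. Python 3.11.15 with pandas 2.3.3 made the tables.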

Additional observations from a re-analysis of the deposited data

Results flagged for a closer look

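TUBB3, NEUROD1 and CHGA each had a change with sgPOU2F3 that differed between lines, by a test of that difference in limma. The TUBB3 response in L191A cells minus that in empty-vector cells was -1.64 on the log2(TPM + 1) scale. NEUROD1, fitted with no filter, had a larger change in L191A cells than in empty-vector cells by 1.26 and than in WT cells by 1.22, and its level in that group was 1.53 ± 0.483 TPM (SD, n = 3). CHGA, also fitted with no filter, changed more in L191A than in WT cells by 0.64 (adjusted p = 0.0184 by limma), but over 16 libraries by 0.46 (adjusted p = 0.0511), and no library reached 1 TPM.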

How the results depend on the processing

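Of 1168 values of the 5 tested members over 60 member and contrast pairs and their alternatives, 1045 kept their direction or stayed uncalled, 56 newly passed, 65 no longer passed and 2 reversed. Both reversals were INSM1 under quantile normalization: L191A minus WT under sgRosa became 0.79 (adjusted p = 0.00408 by limma), and the sgPOU2F3 effect in L191A minus WT became -0.96 (adjusted p = 0.0293). Scaling moved the median change of all genes by 0.116 to 0.133 in empty-vector cells, 0.403 to 0.457 in WT cells and -0.382 to -0.413 in L191A cells. The counts of calls that follow are of tested members, and with no filter all 9 members entered. In empty-vector cells the 2 calls became 1 with a pseudocount of 0.1, a mean of 5 TPM or no variance trend, and 4 over 16 libraries. With no filter they stayed 2, with NCAM1 lost (adjusted p = 0.0587) and CHGA gained (adjusted p = 0.0432 by limma). In WT cells the 1 call became 0 with a mean of 5 TPM or only the groups compared, and 2 with no variance trend or over 16 libraries. In L191A cells the 1 call became 3 with no filter, the added calls being NEUROD1 and CHGA. It became 2 with median-ratio scaling, quantile normalization, the length trend removed or 16 libraries, and 0 with only the groups compared. Between lines under sgPOU2F3 the 4 calls became 8 with no filter, quantile normalization or 16 libraries, and 7 with median-ratio scaling or the length trend removed. Under sgRosa the 9 calls became 3 with median-ratio scaling and 2 with only the groups compared. For differences of the effect, the 1 call became 2 with a pseudocount of 5, 4 with no filter or 16 libraries, 5 with median-ratio scaling, 6 with quantile normalization or the length trend removed, and 0 with only the groups compared. Fewer samples enter that last fit, and more members enter with no filter. The cause of the other shifts was not tested. Leaving out 1 library gave 1 to 4, 0 to 3 and 1 calls in empty-vector, WT and L191A cells, 4 to 6 and 5 to 9 between lines under sgPOU2F3 and sgRosa, and 0 to 4 for differences of the effect. Of 608 values of the members below 1 TPM, 589 kept their call, 5 newly passed and 14 no longer passed. With the replicate block the counts were 2, 1, 1, 4, 9 and 1, as without it; 27 correlations of same-numbered libraries ran from -0.578 to 0.594 with 7 above 0.1, so the numbers were not taken as a pairing. Depth is unknown, and levels under 1 TPM cannot be given a counting error.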
